A study of Mus musculus with 12 samples.

Results

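The nuclear genes that encode the mitochondrial respiratory chain and its ATP synthase were followed across 4 fat depots of denervated, obese mice. Members were taken by gene symbol: every gene named as a subunit or named partner of complex I (Ndufa, Ndufb, Ndufc, Ndufs and Ndufv, including the Ndufaf assembly factors), complex II (Sdha to Sdhd), complex III (Uqcr), complex IV (Cox4 to Cox8) or complex V (Atp5), with pseudogenes left out. This gave 92 of 47729 genes: 38 of complex I, 7 complex I assembly factors, 4 of complex II, 8 of complex III, 18 of complex IV and 17 of complex V. The symbol decides the group, so Ndufa4, now regarded as a subunit of complex IV, is counted with complex I, and Atp5s and Atp5sl, which carry an Atp5 symbol without being regular ATP synthase subunits, with complex V. RNA was sequenced from 12 libraries, 3 each from interscapular brown fat (BAT), inguinal white fat (IWAT), retroperitoneal white fat (RWAT) and epididymal white fat (EWAT). The mice were male, wild type C57BL/6J and were fed a high-fat diet, with an age of 6 to 10 weeks given for the study, and every depot was surgically denervated. No innervated fat was analysed here, so depots were compared with one another and the effect of denervation was not tested. The labels do not say whether libraries of a depot came from separate animals, so each p-value reflects only how far these samples spread, which may be technical.

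The respiratory chain passes electrons from NADH (complex I) and succinate (complex II) through complex III to oxygen at complex IV, and the proton gradient built on the way drives ATP synthesis at complex V. Brown fat is known for dense mitochondria in which the uncoupling protein Ucp1 lets protons back in and releases heat, whereas white fat stores lipid and holds fewer mitochondria. Several subunits of complex IV exist as paired isoforms: Cox7a1 and Cox8b are known from heart, skeletal muscle and brown fat, while their partners Cox7a2 and Cox8a are made in most tissues.

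Levels are given as mRNA TPM, the deposited TPM values (transcript abundance corrected for gene length and depth) rescaled so that nuclear protein-coding genes have the same total in every library. This scale was used because 3 small RNA genes of the 7SL and 7SK families took 11.5% to 54.0% of the deposited TPM. Total expected counts, the estimated reads per gene summed over a library, ranged from 12933516 to 21106554. The brown fat label was checked against its markers: Zic1, a transcription factor of the brown lineage, stood at 6.02, 15.5 and 15.1 mRNA TPM in BAT 1 to 3 and at no more than 0.951 in any white library. Ucp1 stood at 1877 mRNA TPM in BAT 1 but at 0.362 in BAT 2 and 2.24 in BAT 3, against 0.062 to 13.5 in the 9 white libraries. The summed level of 10 brown adipocyte markers was 2895, 53.8 and 67.0 in BAT 1 to 3, against 13.6 to 125 in white libraries. Lhx8 also set BAT apart, at 14.5, 12.9 and 17.3 in BAT 1 to 3, against at most 5.45 in white libraries. Prdm16 and Ebf2, from the same list, did not. Prdm16 stood at 5.43, 2.21 and 2.83 in BAT 1 to 3, against 0.737 to 16.9 in white libraries. Ebf2 stood at 28.0, 16.3 and 18.1, against 5.09 to 45.3. The BAT libraries thus shared high Zic1 and Lhx8 but not high Ucp1, and every result on BAT below is read with that split in view. EWAT 1 held the lowest summed level of 10 adipocyte markers, 2446 mRNA TPM, against 7603 to 36197 in the other libraries. Of the 12 skeletal muscle markers, the summed level was 5444 in RWAT 3, 843 in RWAT 1 and 271 in BAT 1, against 11.6 to 42.8 elsewhere. The summed level of 6 T cell markers was 96.1, 12.4 and 29.1 in BAT 1 to 3, against 9.41 to 28.0 in white libraries, so T cell markers were also highest in BAT 1. The part of T cell and muscle RNA in the BAT 1 values was not tested.

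Summed over all members, the chain stood at 44396, 18446 and 22969.9 mRNA TPM in BAT 1 to 3. IWAT 1 to 3 had 42816, 26103 and 23562, RWAT 1 to 3 had 21532, 18789 and 23406, and EWAT 1 to 3 had 14914, 24396 and 21737. On this scale only BAT 1 and IWAT 1 stood high. The other 10 libraries lay between 14914 (EWAT 1) and 26103 (IWAT 2), a 1.75-fold range. On the deposited TPM scale IWAT 1 (21220) and BAT 1 (18738) were again the 2 highest libraries, but EWAT 2 (7875) was the lowest. There IWAT 2 (16790) and IWAT 3 (15325) also lay above BAT 2, BAT 3 and every RWAT and EWAT library. The chain made up 1.49% to 4.44% of the protein-coding transcripts. Depot averages were 28604 ± 13862 in BAT and 24139 ± 7745 in the white libraries (SD, n = 3 and 9), and 30827 ± 10459.8 in IWAT, 21242 ± 2322 in RWAT and 20349 ± 4891 in EWAT (SD, n = 3 each). The SD within BAT exceeded the distance between BAT and white fat. In bulk tissue, fewer cells of a type and less RNA per cell cannot be told apart.

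**Figure D1:**
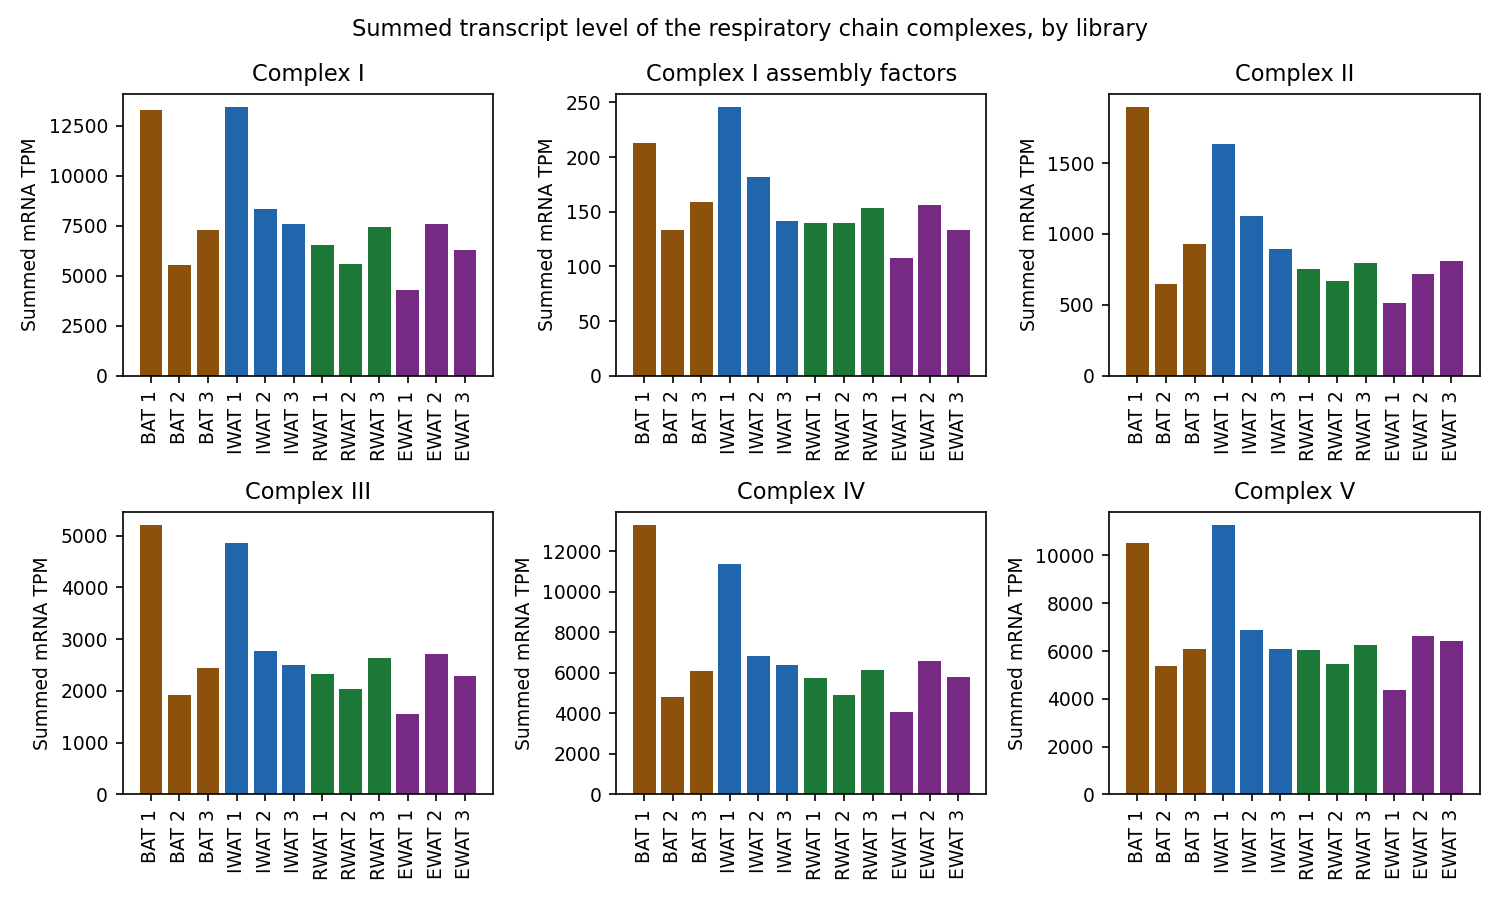
Summed mRNA TPM of the members of each complex in the 12 libraries, 1 bar per library, coloured by depot. BAT 1 and IWAT 1 are the 2 highest bars in every panel and EWAT 1 is the lowest.

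The split within BAT ran through every complex. For complex I, which takes electrons from NADH, the sums were 13294, 5551 and 7284 mRNA TPM in BAT 1 to 3, against 4283 to 13445 in white libraries. For complex II, the succinate dehydrogenase, they were 1896, 651 and 932, against 516 to 1633. For complex III they were 5198, 1914 and 2447, against 1545 to 4862. Complex IV, the cytochrome c oxidase, summed to 13261, 4819 and 6065 in BAT 1 to 3, against 4082 to 11372 in white libraries. For complex V, the ATP synthase, they were 10534, 5379 and 6083, against 4381 to 11258. BAT 1 exceeded the mean of BAT 2 and BAT 3 by 2.07-fold in complex I, 2.40-fold in complex II, 2.38-fold in complex III, 2.44-fold in complex IV and 1.84-fold in complex V. The complex I assembly factors, which help build that complex and are not part of it, differed less, with 212, 134 and 159 in BAT 1 to 3 and a ratio of 1.45. Without Cox7a1 and Cox8b the ratio for complex IV was 2.02.

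These 2 isoforms differed most between BAT 1 and the other BAT libraries. Cox7a1 stood at 741 mRNA TPM in BAT 1, 13.0 in BAT 2 and 16.3 in BAT 3. Among white libraries, IWAT 1 to 3 had 81.1, 12.3 and 16.1, RWAT 1 to 3 had 22.6, 16.9 and 69.8, and EWAT 1 to 3 had 14.3, 23.2 and 22.0. Only BAT 1 was far above the rest, and BAT 2 and BAT 3 lay among the lowest white libraries. Cox8b stood at 1574 mRNA TPM in BAT 1, 0.397 in BAT 2 and 19.7 in BAT 3. IWAT 1 to 3 had 472, 139 and 33.3, RWAT 1 to 3 had 31.4, 1.04 and 80.2, and EWAT 1 to 3 had 0.353, 0.805 and 4.39. All 3 IWAT libraries were thus above BAT 3, BAT 2 and every EWAT library, and BAT 2 lay within the EWAT range. For BAT over the white average (the mean of the IWAT, RWAT and EWAT coefficients), Cox7a1 had a log2 fold change of 3.09 ± 0.95 (SE; edgeR quasi-likelihood test, Benjamini-Hochberg adjusted p = 0.450) and Cox8b one of 4.37 ± 1.37 (adjusted p = 0.466 by edgeR). Neither passed the threshold of 0.05, and without BAT 1 the log2 fold changes were -1.14 for Cox7a1 and -1.43 for Cox8b.

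**Figure D2:**
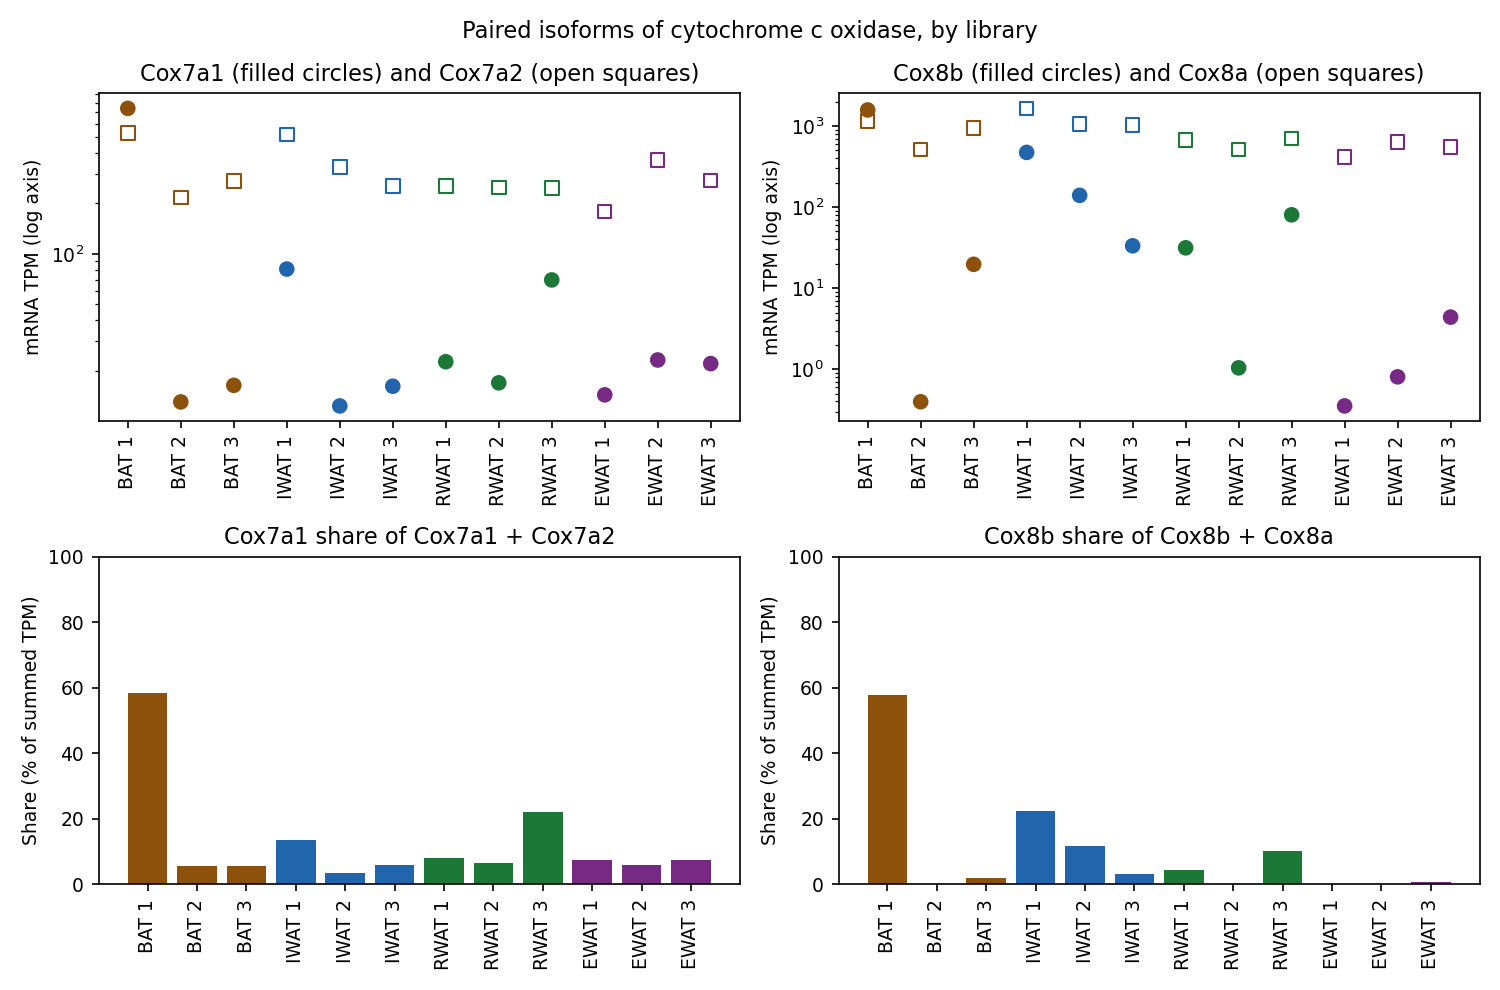
Upper panels show mRNA TPM on a log axis of Cox7a1 with Cox7a2 and of Cox8b with Cox8a in the 12 libraries, coloured by depot, and lower panels the share of Cox7a1 and Cox8b in the summed TPM of each pair, in percent. BAT 1 is the single library in which Cox7a1 and Cox8b exceed their partners, with shares of 58.4% and 57.9%.

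The share of an isoform within its pair does not depend on the scaling between libraries. Cox7a1 made up 58.4%, 5.67% and 5.67% of Cox7a1 plus Cox7a2 in BAT 1 to 3, against a lowest, median and highest share of 3.60%, 7.39% and 22.0% in the 9 white libraries. Cox8b made up 57.9%, 0.0773% and 2.04% of Cox8b plus Cox8a in BAT 1 to 3, against 0.0855%, 3.14% and 22.3% in white libraries. BAT minus white differed by 14.3 percentage points for Cox7a1 (two-sided exact permutation test over 220 splits, p = 0.436) and by 14.1 points for Cox8b (exact permutation p = 0.409). Adjusted over the 5 isoform pairs both p-values were 0.75 (exact permutation test, Benjamini-Hochberg). Each of the 220 splits weighs 0.00455, and the two-sided test doubles the smaller tail, so its p cannot fall to that value. The ubiquitous partners varied less. Cox7a2 stood at 528, 217 and 272 mRNA TPM in BAT 1 to 3, against 179.6 to 518 in white fat, and Cox8a at 1147, 513 and 942, against 412 to 1647.

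The proximal promoters of both pairs are shown because the isoforms of a pair differed in how far they varied between libraries of a depot. Each window covers 250 bases before and 50 after the RefSeq transcription start on GRCm38.p6, on the strand of the gene. They lie at chr7:30183921-30184220 (plus strand, Cox7a1), chr7:140900397-140900696 (minus strand, Cox8b), chr9:79759804-79760103 (minus strand, Cox7a2) and chr19:7217567-7217866 (minus strand, Cox8a). The promoter of Atp5g3, at chr2:73911277-73911576 (minus strand), is added because this complex V gene did not follow the other members in BAT 1. Capitals mark letters that match 1 of 4 motifs searched on both strands: the run GCGCA, any base, GCGC for NRF1, CCGGAAGT for the ETS factor GABP, TNAAGGTCA for the oestrogen-related receptors and AAGATGGC for YY1.
Cox7a1: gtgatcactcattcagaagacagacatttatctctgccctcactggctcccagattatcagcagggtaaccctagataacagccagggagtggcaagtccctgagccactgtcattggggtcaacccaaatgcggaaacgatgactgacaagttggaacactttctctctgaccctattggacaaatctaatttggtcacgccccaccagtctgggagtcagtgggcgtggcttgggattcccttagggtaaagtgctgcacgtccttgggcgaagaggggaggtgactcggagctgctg
Cox8b: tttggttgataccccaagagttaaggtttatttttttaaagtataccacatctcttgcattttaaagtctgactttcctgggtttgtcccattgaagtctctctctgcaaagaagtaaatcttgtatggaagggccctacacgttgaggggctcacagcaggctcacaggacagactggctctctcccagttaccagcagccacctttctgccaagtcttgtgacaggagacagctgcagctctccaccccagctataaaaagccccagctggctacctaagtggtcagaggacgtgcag
Cox7a2: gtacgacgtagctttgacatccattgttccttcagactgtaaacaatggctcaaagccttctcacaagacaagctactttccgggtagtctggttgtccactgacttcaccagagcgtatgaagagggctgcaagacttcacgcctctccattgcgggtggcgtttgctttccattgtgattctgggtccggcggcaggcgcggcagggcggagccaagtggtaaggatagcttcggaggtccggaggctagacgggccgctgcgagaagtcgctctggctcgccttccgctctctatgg
Cox8a: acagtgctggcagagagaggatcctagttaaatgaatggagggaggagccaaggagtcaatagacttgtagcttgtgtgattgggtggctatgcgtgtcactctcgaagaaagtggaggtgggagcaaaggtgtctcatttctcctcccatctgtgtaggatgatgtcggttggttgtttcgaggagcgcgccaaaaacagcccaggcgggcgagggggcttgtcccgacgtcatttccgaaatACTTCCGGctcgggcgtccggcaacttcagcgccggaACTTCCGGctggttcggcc
Atp5g3: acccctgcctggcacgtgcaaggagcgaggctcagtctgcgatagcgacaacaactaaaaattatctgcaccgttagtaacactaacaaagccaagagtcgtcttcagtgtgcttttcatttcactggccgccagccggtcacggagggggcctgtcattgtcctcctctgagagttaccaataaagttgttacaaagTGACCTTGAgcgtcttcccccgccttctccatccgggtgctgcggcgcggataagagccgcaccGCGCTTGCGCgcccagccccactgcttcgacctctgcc
The Cox8a window held the GABP letters at 2 places and the Atp5g3 window held 1 match for the oestrogen-related receptors and 1 for NRF1, while the windows of Cox7a1, Cox8b and Cox7a2 held none of the 4. Over the 78 promoter entries found for 73 of the 92 members, NRF1 letters were in 25.6%, against 4.60% of all 32851 mouse entries of the same length. GABP letters were in 6.41% against 3.89%, the receptor motif in 3.85% against 1.28%, and YY1 letters in 11.5% against 2.75%. A match is a run of letters and not a bound site, and no binding was measured.

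Over the white average, BAT had 0 of 90 tested members past the threshold by edgeR, where 0.0528% of all 18942 tested genes were called in either direction. At an unadjusted p below 0.05, 2 members were higher (Cox7a1 and Cox8b, against 3.87% of all genes) and 0 were lower (1.05% of all genes). DESeq2 and limma-voom also called 0. On scaled counts, 0 members had all BAT libraries above all white libraries (0.248% of all genes) and 0 had all below (0.195%). Most signs were alike: 74 of 90 members had a log2 fold change above 0, against 51.2% of all genes, and the median was 0.20, against 0.01 for all genes. That direction rested on 1 library. Without BAT 1, only 2 of 90 members were above 0 and the median was -0.26, with 50.4% of all genes above 0. Members measured in the same libraries are not independent, so these counts describe the set and carry no test. Members above all 9 white libraries on the mRNA TPM scale numbered 49 in BAT 1 and none in BAT 2 or BAT 3. No share over all genes was computed for this count, so it cannot be read as particular to the chain. This count depends on the scale: BAT 1 was the highest of the 12 libraries for 49 members in mRNA TPM, but for 20 on TMM-scaled counts, the scale of the edgeR test, and for 20 in deposited TPM. IWAT 1 was the highest for 32, 64 and 54 members on these 3 scales.

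**Figure D3:**
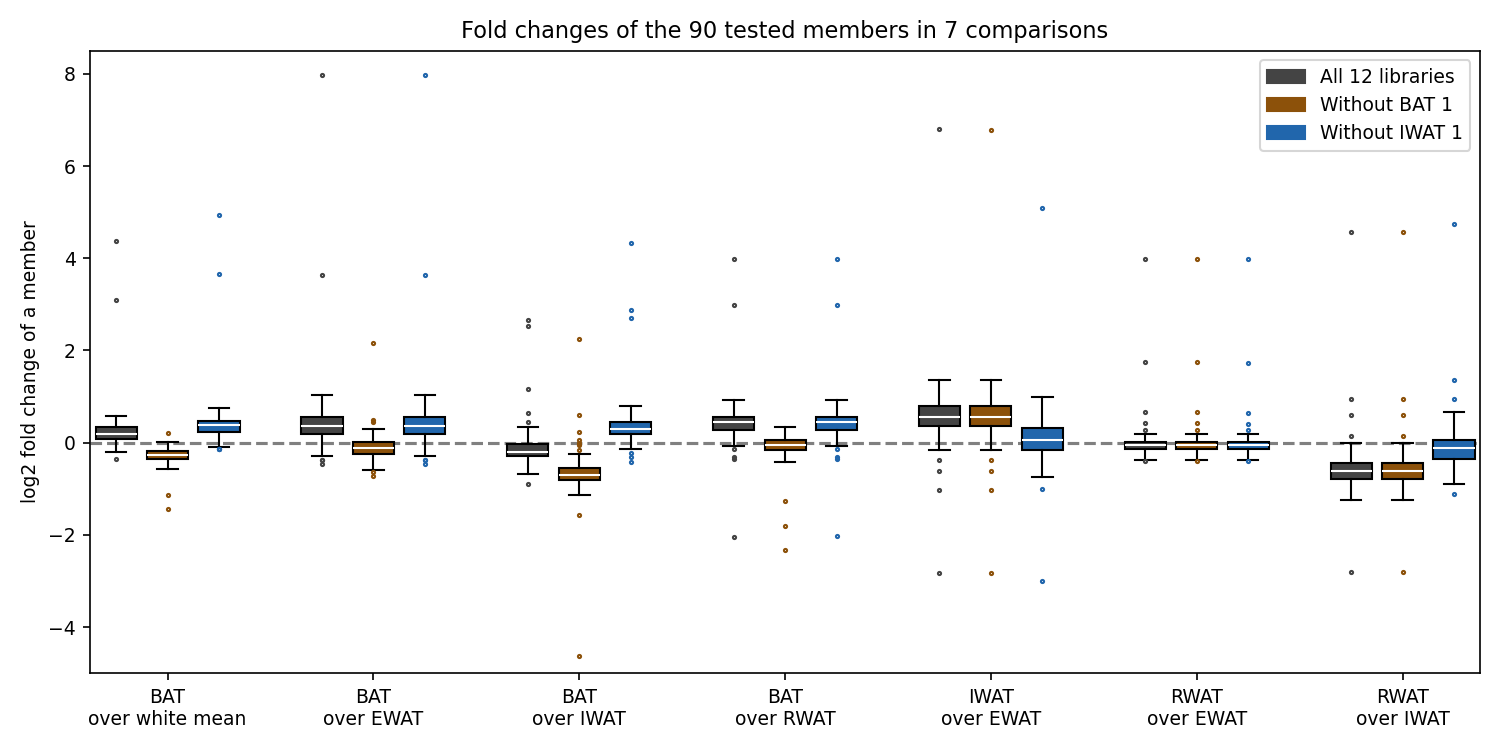
Log2 fold changes of the 90 tested members in 7 comparisons, with all 12 libraries (grey), without BAT 1 (brown) and without IWAT 1 (blue); boxes span the quartiles with the median in white, whiskers reach 1.5 box lengths and dots are members beyond them. The median of BAT over white is 0.20 with all libraries and -0.26 without BAT 1, and that of IWAT over EWAT is 0.55 with all libraries and 0.06 without IWAT 1.

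Among the complex I subunits, Ndufv1 binds NADH and its flavin. It stood at 488, 148 and 227 mRNA TPM in BAT 1 to 3, against 103, 164 and 419 as lowest, median and highest white value (log2 fold change 0.52 ± 0.35 SE, adjusted p = 0.999 by edgeR). On this scale BAT 1 was above every white library and BAT 2 below the white median. In deposited TPM, BAT 1 (206) was just below IWAT 1 (208). Ndufs1, the iron-sulfur subunit that receives those electrons, stood at 283, 103 and 128 in BAT, against 72.3, 122 and 279. Ndufs7, another iron-sulfur subunit, had 259, 85.4 and 113, against 70.8, 102 and 191 (log2 fold change 0.45 ± 0.34 SE, adjusted p = 0.999 by edgeR). On the mRNA TPM scale these 3 subunits shared 1 order within BAT, with BAT 1 on top, BAT 3 next and BAT 2 last. The sum over all members had the same order. In deposited TPM, Ndufs1 stood at 59.6 in BAT 2 and 58.2 in BAT 3, while Ndufv1 and Ndufs7 kept the order. Of the accessory subunits, Ndufa9 stood at 199, 83.4 and 115, against 65.8 to 191 in white libraries. Ndufb8 had 968, 325 and 422, against 211 to 1011. Ndufa4 had the highest average level of the group, 814, 319 and 517, against 199 to 859. Ndufa2, with the lowest fold change of complex I (-0.04 ± 0.30 SE, adjusted p = 0.999 by edgeR), had 281, 164 and 219, against 134 to 352. The 7 assembly factors were far less abundant; Ndufaf3, the highest, stood at 60.2, 33.5 and 50.1, and Ndufaf6, the lowest, at 16.1, 11.4 and 10.9. Of these 7, 4 had a log2 fold change above 0 over white fat, from -0.07 to 0.25.

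Complex II oxidises succinate and is the one chain complex encoded in full by nuclear genes. Sdha, its flavoprotein, stood at 660.2, 205 and 361 mRNA TPM in BAT 1 to 3, against 150.3, 225 and 628 as lowest, median and highest white value (log2 fold change 0.55 ± 0.33 SE, adjusted p = 0.999 by edgeR). Sdhb, the iron-sulfur subunit, stood at 469, 136 and 185, against 109.8, 160.4 and 367 (0.55 ± 0.39 SE, adjusted p = 0.999 by edgeR). On the mRNA TPM scale, BAT 1 was the highest library for both, while BAT 2 lay below the white median. In deposited TPM, Sdha was higher in IWAT 1 (311) and IWAT 2 (295) than in BAT 1 (279). The membrane anchors were Sdhc with 403, 182 and 223, against 147, 235 and 379, and Sdhd with 363, 127 and 163, against 109, 159.9 and 259. Sdhc had the lowest fold change of the complex (0.15 ± 0.28 SE, adjusted p = 0.999 by edgeR).

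Complex III hands electrons from ubiquinol to cytochrome c. Its core proteins Uqcrc1 and Uqcrc2 stood at 568, 206 and 231 and at 613, 169 and 191 mRNA TPM in BAT 1 to 3, against white ranges of 144 to 425 and 135 to 470.5. The Rieske iron-sulfur protein Uqcrfs1 stood at 339, 99.8 and 129, against 76.7 to 273. BAT 1 was above every white library for all 3 genes, and BAT 2 and BAT 3 were within the white range. Log2 fold changes over white fat were 0.58 ± 0.35 for Uqcrc1 and 0.50 ± 0.38 for Uqcrfs1 (SE; adjusted p = 0.999 for both by edgeR). The hinge protein Uqcrh, the most abundant, stood at 906, 359.7 and 469, against 289 to 924, and had the lowest fold change (0.05 ± 0.39 SE).

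In complex IV, the regulatory subunit Cox4i1 was the most abundant gene by average level, with 1639, 701 and 965 mRNA TPM in BAT 1 to 3, against 616 to 1975 in white fat. Cox5a and Cox5b, which sit beside the catalytic core, stood at 652, 244 and 245 and at 1368, 626 and 597, against 213 to 381 and 482 to 1039. Cox6b1 had 1904, 795 and 999.9, against 643 to 1573. BAT 1 was the highest library for Cox5a, Cox5b and Cox6b1, while IWAT 1 was highest for Cox4i1. Cox7a2l, a factor in the joining of complexes III and IV, stood at 270.3, 189 and 229 in BAT, against 203 to 386 in white fat, and BAT 2 was below every white library. It had the lowest fold change of complex IV (-0.20 ± 0.22 SE, adjusted p = 0.999 by edgeR). Cox7b2 and Cox8c, known from testis, had 0 counts in all 12 libraries, which allows up to 0.142 to 0.232 CPM (counts scaled to library size) each (a floor of 3 counts, covering counting error only).

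In complex V, Atp5b, the catalytic beta subunit, was the most abundant member of the whole set in BAT 1, with 2351, 1060.0 and 1163 mRNA TPM in BAT 1 to 3, against 776 to 2287 in white fat. Its partner Atp5a1 stood at 1194, 566 and 651, against 435 to 1078. Atp5d stood at 379, 191 and 193, against 156 to 282 (log2 fold change 0.35 ± 0.27 SE, adjusted p = 0.999 by edgeR). Atp5sl had 28.6, 13.9 and 16.9, against 11.9 to 20.1 (0.46 ± 0.23 SE, adjusted p = 0.999 by edgeR). On the mRNA TPM scale, BAT 1 was above every white library for these 4 genes. In deposited TPM this held only for Atp5d. There Atp5b stood at 992 in BAT 1 and 1134 in IWAT 1, and Atp5a1 at 504 and 534. Atp5sl stood at 12.1 in BAT 1 and 12.9 in IWAT 2 in deposited TPM. Atp5s was the least abundant member of the group with signal, at 6.87, 6.06 and 5.40, against 3.99 to 10.6.

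The rotor of the ATP synthase is a ring of identical c subunits whose precursors are made by 3 genes, of which Atp5g1 and Atp5g3 departed from most other members. Atp5g3 stood at 358, 359 and 473 mRNA TPM in BAT, 1022, 609.8 and 407 in IWAT, 460.0, 436 and 444 in RWAT, and 277, 373 and 458 in EWAT (replicates 1 to 3). BAT 1 did not exceed the other BAT libraries, and IWAT 1 was far above the rest. Atp5g1 stood at 169, 219 and 134 in BAT, 121, 153 and 135 in IWAT, 233, 245 and 205 in RWAT, and 218, 193 and 233 in EWAT. Every IWAT library was below every RWAT and EWAT library. Atp5g2 ranged from 143 to 248 over all 12 libraries, with a BAT 1 ratio of 1.26, and RSEM's posterior SD, its uncertainty in assigning reads between genes, was 9.98% of the count in the median library, the only member over 5%. Among 80 members with an average of at least 20 mRNA TPM, Atp5g3 and Atp5g1 were the 2 with less RNA in BAT 1 than in the mean of BAT 2 and BAT 3, with ratios of 0.859 and 0.958. The median ratio over the 80 was 2.12, and 70 were above 1.5. Within the 3 genes, the Atp5g1 share was 22.4%, 28.5% and 17.2% in BAT, 8.87%, 16.9% and 19.4% in IWAT, 25.9%, 28.2% and 23.5% in RWAT and 34.2%, 26.3% and 24.8% in EWAT. The log2 fold change of Atp5g3 for BAT over the white average was -0.36 ± 0.32 (SE, adjusted p = 0.999 by edgeR), the lowest of all 90 members.

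**Figure D4:**
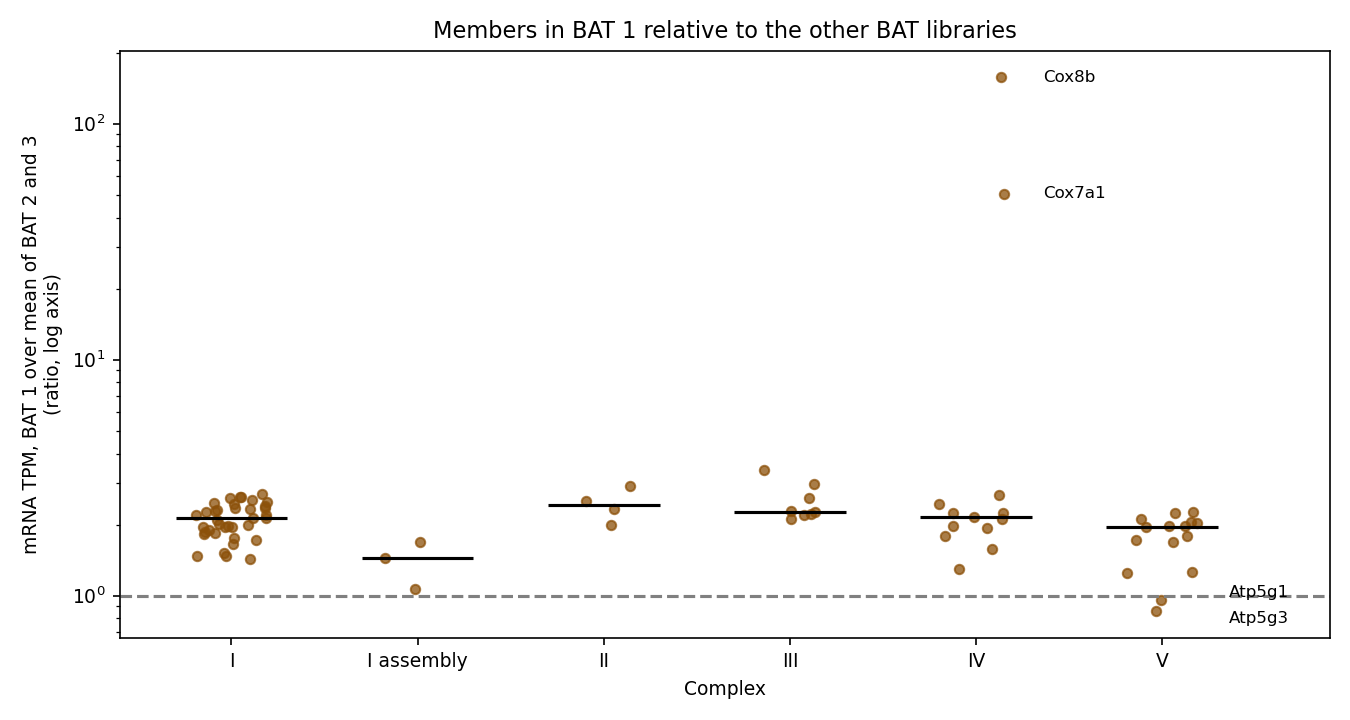
Ratio of mRNA TPM in BAT 1 to the mean of BAT 2 and BAT 3 for the 80 members with an average of at least 20 mRNA TPM, by complex, on a log axis; each dot is a gene, black lines are medians and the dashed line marks equal levels. Most genes sit near the overall median of 2.12, Cox8b (157) and Cox7a1 (50.5) lie far above, and Atp5g1 (0.958) and Atp5g3 (0.859) lie below 1.

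BAT 1 and IWAT 1, the 2 libraries with the highest chain sums, were alike for most members. BAT 1 over IWAT 1 had a median ratio of 1.05 over the 80 genes; 3 were above 1.5 (Cox7a1 with 9.14, Cox8b with 3.34 and Cox5a with 1.71) and 2 were below its inverse (Atp5g3 with 0.350 and Atp5j with 0.514). Each ratio compares 1 library with 1 library and has no replicate check. The 2 libraries differed in their markers: the brown adipocyte sum was 2895 in BAT 1 and 94.3 in IWAT 1, and the sum of 10 adipocyte markers was 12576 in BAT 1 and 35132 in IWAT 1. Their part in the result was not tested. The mean of BAT 2 and BAT 3 was below the mean of the 9 white libraries in 78 of the 80 genes, with a median ratio of 0.864. That white mean includes IWAT 1, which exceeded the mean of IWAT 2 and IWAT 3 by more than 1.5-fold in 63 of the 80. No comparison with the white median and no share over all genes was computed for this ratio.

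Against the single white depots, edgeR called 0 members in each case, where 0.143% of all genes were called in BAT over EWAT, 0.0264% in BAT over IWAT and 0.0211% in BAT over RWAT. At an unadjusted p below 0.05, BAT over EWAT had 3 members higher (Cox8b, Cox7a1 and Sdha; 6.03% of all genes) and 0 lower (3.92%), BAT over IWAT 1 higher (Cox6a2; 8.11%) and 1 lower (Atp5g3; 5.09%), and BAT over RWAT 1 higher (Sdha; 2.73%) and 1 lower (Cox6a2; 1.99%). DESeq2 called 1 member, Cox8b in BAT over EWAT (log2 fold change 8.01, adjusted p = 0.00565), and limma-voom called 0 in all 3. Cox8b stood at 1574 mRNA TPM in BAT 1, while BAT 2 (0.397) lay within the EWAT values of 0.353, 0.805 and 4.39. On scaled counts, BAT libraries lay all above the other depot for 0 members against EWAT (5.49% of all genes), 1 against IWAT (8.37%) and 0 against RWAT (4.15%). They lay all below for 0 (5.15%), 1 (7.91%) and 0 (4.36%). Members with a log2 fold change above 0 numbered 80 of 90 in BAT over EWAT, 17 in BAT over IWAT and 84 in BAT over RWAT, against 50.7%, 48.1% and 52.5% of all genes. The medians were 0.37, -0.20 and 0.46. Without BAT 1 these counts were 25, 4 and 30. In BAT over IWAT the count ran from 4 to 81 when single libraries were left out, and it was 81 without IWAT 1, 63 without BAT 2, 37 without BAT 3, and 9 without IWAT 2 or without IWAT 3. The 3 comparisons share the BAT libraries, so they are not separate evidence. The summed level of the 8 macrophage markers did not overlap between the depots. It was 5260.2 to 6721 mRNA TPM in BAT, against 2621 to 4086 in IWAT, 7737 to 9062 in RWAT and 10613 to 15453 in EWAT. Lyz2 made up most of this sum, with 3794, 4196 and 5089 in BAT 1 to 3. Not every marker followed the sum: Csf1r overlapped between all depots, at 186, 205 and 304 in BAT 1 to 3, against 186 to 283 in white libraries. None of the 8 macrophage genes was called by edgeR in these 3 comparisons. At an unadjusted p below 0.05, 3 were lower in BAT over EWAT, 1 was higher in BAT over IWAT and 0 passed in BAT over RWAT. Their part in the result was not tested.

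IWAT over EWAT was the contrast with the most calls in the genome, 11.0% of all tested genes, yet edgeR called 0 of the 90 members. At an unadjusted p below 0.05, 13 were higher (15.6% of all genes) and 2 lower (15.1%). On scaled counts, 13 members had every IWAT library above every EWAT library (17.3% of all genes) and 2 had every IWAT library below (15.1%). The share of members with separated libraries was therefore no larger than that of genes at large. Sdha stood at 628, 459 and 354 mRNA TPM in IWAT, against 150.3, 167 and 242 in EWAT. Cox8a stood at 1647, 1057 and 1027 in IWAT, against 412, 638 and 550.1 in EWAT. Ndufb3, an accessory subunit of complex I, had 313, 231 and 211 in IWAT, against 60.7, 153 and 100.1 in EWAT. The groups did not overlap in any of these 3. The log2 fold changes were 1.36 ± 0.42 for Sdha (adjusted p = 0.0589 by edgeR), 1.21 ± 0.39 for Cox8a (0.0633) and 1.24 ± 0.43 for Ndufb3 (0.0817). Atp5g1 went the other way, with -0.62 ± 0.19 (adjusted p = 0.0572 by edgeR), as did Cox6a2 with -2.82 ± 0.88 (0.0590). DESeq2 called 6 members: Atp5g1 and Cox6a2 lower, and Cox8a, Cox8b, Ndufb3 and Sdha higher, with adjusted p from 0.00690 to 0.0353; limma-voom called 0. With edgeR, leaving out 1 library at a time gave 0 to 5 members called, the 5 without BAT 2 (Atp5g1, Cox8a, Cox8b, Ndufb3 and Sdha), a library outside the contrast. In all, 82 of 90 members had a log2 fold change above 0 (51.5% of all genes) with a median of 0.55, and 51 of 90 with a median of 0.06 without IWAT 1. Cell type markers moved with this contrast. The sum of the 10 adipocyte markers was 30825 to 36197 mRNA TPM in IWAT, against 2446 to 18324 in EWAT, with 0 of 10 genes past the threshold. The sum of 8 macrophage markers, most of it Lyz2, was 2621 to 4086 in IWAT, against 10613 to 15453 in EWAT, with 4 of 8 genes lower. Mrc1 went the other way, at 175, 261 and 235 in IWAT 1 to 3, against 131, 150 and 170 in EWAT 1 to 3. Of 8 mesothelial markers, 6 were lower in IWAT. Their part in the result was not tested.

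RWAT over IWAT shares the IWAT libraries with the contrast above, so they are not separate evidence. edgeR called 0 members and 0 genes in all; at an unadjusted p below 0.05, 2 members were higher (9.94% of all genes) and 12 lower (10.7%). Every RWAT library was below every IWAT library for 22 members (24.4%, against 15.2% of all genes). Of these, 14 were in complex I, which holds 38 of the 90 tested members. Every RWAT library was above every IWAT library for 2 members, Cox6a2 and Atp5g1 (11.0% of all genes). Sdha stood at 225, 176 and 206 mRNA TPM in RWAT, against 628, 459 and 354 in IWAT (log2 fold change -1.25 ± 0.42 SE, adjusted p = 0.159 by edgeR). Cox8a stood at 670.5, 509 and 697 in RWAT, against 1647, 1057 and 1027 in IWAT (-1.12 ± 0.39 SE, adjusted p = 0.163 by edgeR). Ndufb3 had 129.6, 94.4 and 136 in RWAT, against 313, 231 and 211 in IWAT (-1.19 ± 0.43 SE, adjusted p = 0.172 by edgeR). Atp5g1 was higher in RWAT (0.60 ± 0.19 SE, adjusted p = 0.145 by edgeR). Members above 0 numbered 4 of 90 (49.0% of all genes) with a median of -0.62, and 26 of 90 with a median of -0.12 without IWAT 1. limma-voom called 0 and DESeq2 called 1, Cox6a2, which edgeR also called without RWAT 2 (log2 fold change 5.04, adjusted p = 0.0206). Summed levels of adipocyte and macrophage markers did not overlap between RWAT and IWAT. The sum of the 10 adipocyte markers was 7603 to 21327 mRNA TPM in RWAT, against 30825 to 36197 in IWAT, and that of the 8 macrophage markers was 7737 to 9062 in RWAT, against 2621 to 4086 in IWAT. None of these genes was called by edgeR; at an unadjusted p below 0.05, 4 of 10 adipocyte markers were lower, and 5 of 8 macrophage, 6 of 8 mesothelial and 11 of 11 tested muscle markers were higher. Their part in the result was not tested.

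In RWAT over EWAT, edgeR called 0 members, with 0.00528% of all genes called, and DESeq2 and limma-voom called 0 members. At an unadjusted p below 0.05, 1 member was higher (Cox6a2; 3.03% of all genes) and 0 lower (1.79%). No member had separated libraries (3.97% of all genes above, 3.78% below), and 26 of 90 were above 0 (48.2% of all genes), with a median of -0.06 and a range of 9 to 60 when single libraries were left out.

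Cox6a2 is the isoform of Cox6a known from heart and skeletal muscle. It stood at 5.38, 5.19 and 1.86 mRNA TPM in BAT, 0.706, 0.544 and 0.784 in IWAT, 9.20, 4.46 and 42.2 in RWAT, and 5.97, 2.82 and 5.30 in EWAT (replicates 1 to 3). RWAT 3 was the highest and all IWAT libraries were below every other library. Cox6a2 was near the floor in IWAT, at 0.35, 0.35 and 0.51 in deposited TPM, and its lowest expected count in any library was 3. For RWAT over IWAT its log2 fold change was 4.57 ± 0.86 (SE, adjusted p = 0.103 by edgeR) and 2.55 without RWAT 1 and RWAT 3, the libraries with the highest muscle marker sums; DESeq2 gave an adjusted p of 2.46e-05. Acta1, the actin of skeletal muscle, stood at 863 in RWAT 3, 125 in RWAT 1 and 9.29 in RWAT 2, and the part of muscle RNA in the Cox6a2 result was not tested. The Cox6a2 share of Cox6a1 plus Cox6a2 was 0.561%, 1.11% and 0.311% in BAT 1 to 3, against 0.0731% to 8.25% in white libraries (exact permutation p = 0.573). The ubiquitous Cox6a1 stood at 953, 464 and 598 in BAT 1 to 3, against 368 to 966.

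**Figure D5:**
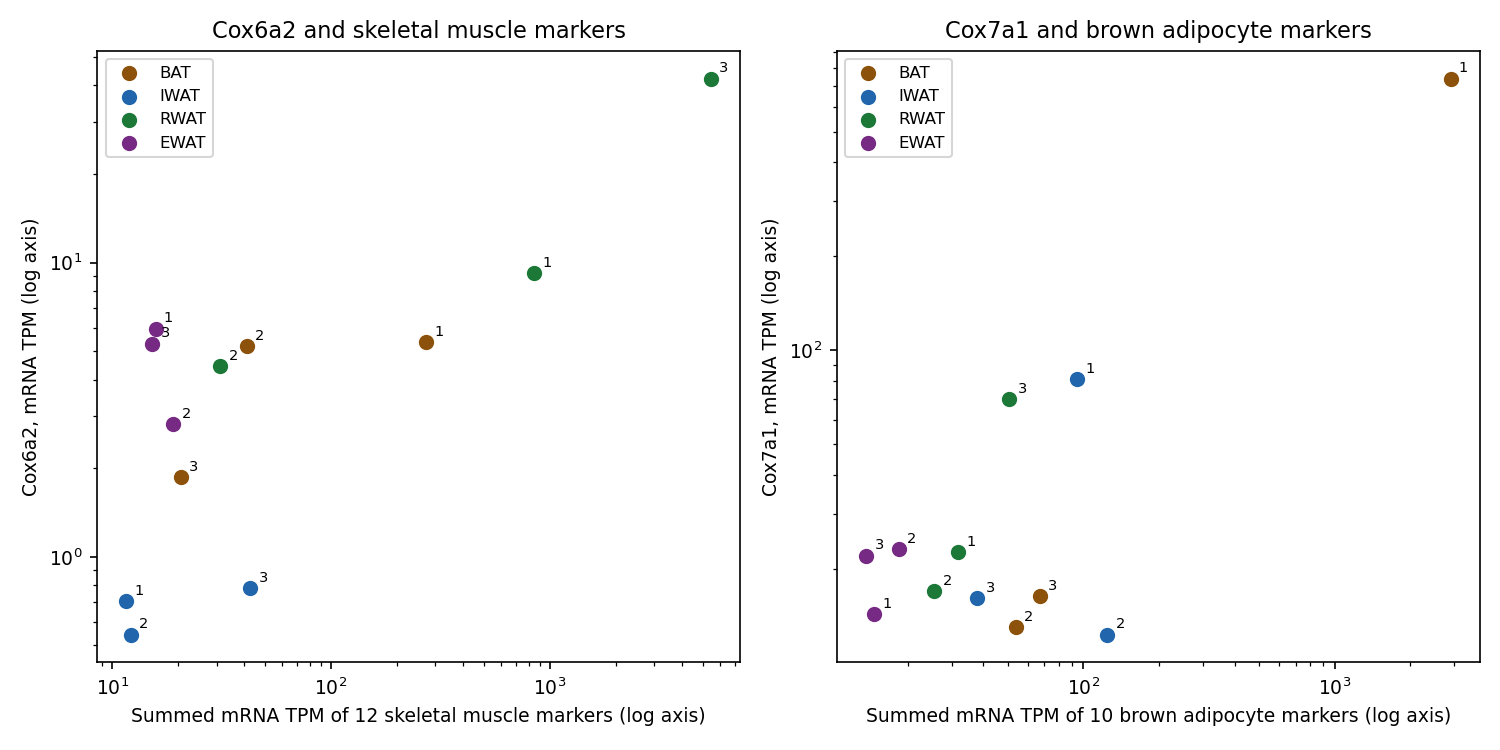
Left, Cox6a2 against the summed level of 12 skeletal muscle markers, and right, Cox7a1 against the summed level of 10 brown adipocyte markers, in mRNA TPM on log axes; each point is a library, coloured by depot and labelled with its replicate number. RWAT 3 is highest on both left axes (5444 and 42.2), and BAT 1 on both right axes (2895 and 741).

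In the other tested isoform pairs, the BAT shares lay within the white range. Cox4i2, the isoform of Cox4 known for its oxygen-dependent expression, was rare at 4.67, 2.24 and 3.95 mRNA TPM in BAT 1 to 3, against at most 6.16, and made up 0.284%, 0.319% and 0.408% of its pair, against 0.0929% to 0.622% (exact permutation p = 0.600). Ndufa4l2, a hypoxia-induced relative of Ndufa4, stood at 15.2, 19.2 and 11.7 in BAT 1 to 3, 7.71, 9.11 and 11.8 in IWAT, 8.57, 13.4 and 39.4 in RWAT and 47.2, 6.57 and 5.06 in EWAT. EWAT 1 and RWAT 3 were the high libraries. Its share of the pair was 1.84%, 5.67% and 2.20% in BAT 1 to 3, against 0.889% to 19.2% (exact permutation p = 0.909). Cox6b2, known from testis, stood at 7.08, 2.85 and 3.84, against 1.95 to 6.17, so BAT 1 was above every white library on this scale. In deposited TPM, IWAT 2 (3.97) was above BAT 1 (2.99).

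Genes that work with the chain but are not members were followed in 9 lists. On the mRNA TPM scale, the summed level of 6 of these was highest in BAT 1. This rank depends on the scale, as protein-coding genes took 42.2% of deposited TPM in BAT 1, 49.6% in IWAT 1 and 64.3% in IWAT 2. No gene of these lists was called by edgeR in BAT over the white average: 0 of 12 for coenzyme Q synthesis, 0 of 3 for the electron transfer flavoprotein, 0 of 2 for cytochrome c and Cyc1, 0 of 13 mitochondrially encoded subunits, 0 of 15 nuclear regulators, and 0 of 4, 6, 24 and 6 assembly factors of complexes II, III, IV and V. At an unadjusted p below 0.05, coenzyme Q synthesis had 1 gene higher, the electron transfer flavoprotein 1, the regulators 3 and the others 0, and none had one lower. Together these were 5 of 85 tested genes higher (5.88%, against 3.87% of all genes) and 0 lower (1.05% of all genes). The 13 mitochondrially encoded subunits summed to 81776, 22804 and 38090.1 on the mRNA TPM scale in BAT 1 to 3, against 20538 to 58409.7 in white libraries. On this scale BAT 1 was the highest library, as it was for the electron transfer flavoprotein with 1989, 587 and 967, against 379.5 to 1746. In deposited TPM, IWAT 2 was above BAT 1 for the mitochondrially encoded sum, and IWAT 1 for the electron transfer flavoprotein. Adck3, a kinase-like protein of coenzyme Q synthesis, stood at 571, 6.14 and 45.9, against 5.13 to 55.0 (log2 fold change 2.91 ± 0.78 SE, adjusted p = 0.293 by edgeR). Etfdh, which passes electrons from fatty acid oxidation to coenzyme Q, stood at 228, 57.8 and 79.2, against 40.7 to 113 (0.85 ± 0.34 SE, adjusted p = 0.836 by edgeR). Cyc1, the cytochrome of complex III, stood at 364, 92.9 and 137, against 77.5 to 346. Of the regulators, Ppara, a receptor that drives fatty acid oxidation genes, stood at 43.9, 1.19 and 4.63, against 0.434 to 8.86 (2.93 ± 0.79 SE, adjusted p = 0.293 by edgeR). Esrrg, an oestrogen-related receptor, stood at 6.54, 0.449 and 0.263, against 0 to 3.26 (2.06 ± 0.86 SE, adjusted p = 0.901 by edgeR). In IWAT over EWAT, 2 of the 85 list genes were called (2.35%, against 11.0% of all tested genes), and both fell: Atpif1, the inhibitor of the ATP synthase, with 102, 133 and 265 mRNA TPM in IWAT, against 368, 415 and 496 in EWAT (log2 fold change -1.43 ± 0.34 SE, adjusted p = 0.0281 by edgeR), and Coa4, an assembly factor of complex IV (-1.17 ± 0.32 SE, adjusted p = 0.0401 by edgeR).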

How the data were processed

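Total RNA depleted of ribosomal RNA was sequenced single-end in 12 libraries, 3 for each of 4 denervated fat depots, per the labels' protocols. The submitters' processing notes name Trimmomatic 0.36, RSEM 1.3.0, DESeq2 1.10.1 and the GRCm38.p4 build; neither the aligner nor strand use is given in the sources used here. For each library, the authors deposited the expected count per gene from RSEM, not normalised between libraries. They also deposited TPM per gene from RSEM, and its posterior SD of the count, per the file headers. The total expected count ran from 12933516 to 21106554 per library.

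Expected counts were rounded and tested with edgeR 4.0.16 (quasi-likelihood F test, filterByExpr with a minimum count of 10, TMM factors from 0.846 to 1.14, 1 model for all 4 depots) in R 4.3.3. P-values were adjusted by Benjamini-Hochberg over all 18942 tested genes, with a threshold of 0.05. A voom fit with limma 3.58.1 and DESeq2 1.42.0 were alternatives, beside leaving out each library. Isoform shares were compared by exact permutation in scipy 1.17.1. The mRNA TPM scale was chosen after seeing the data, and summed levels are also given on the deposited scale below. Libraries were set side by side as non-overlapping on TMM-scaled counts. Scripts were tested on simulated data.

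The members and the gene lists were chosen with earlier results of these data known. Named members are the isoform families, core subunits, the highest and lowest member of each complex, and in BAT over the white average the 2 members with the smallest p and those with the largest and smallest fold change per complex. Values of 1 core subunit are not reported here. Atp5j and Cox7a2l were singled out by their values where described as such, and the genes named in IWAT over EWAT and RWAT over IWAT, beyond these, are the 5 with the smallest p, chosen after seeing the data. Replicate numbers are not stated to pair samples. Same-numbered libraries deviated together (correlation over 0.1) in 8 of 18 pairs, and in all 3 pairs for 1 of 6 depot pairs, BAT and RWAT; with the replicate block edgeR called 0 members in BAT over RWAT too. Promoter sequences are RefSeq windows of GRCm38.p6.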

Additional observations from a re-analysis of the deposited data

Results flagged for a closer look

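Among the 9 white libraries, 22 results were checked for a single library far from the others. The gap to its nearest neighbour, as a share of the whole range, was set against the 95% critical value of Dixon's test. Chance exceeds that value in about 1 of 20 groups drawn from a single normal distribution. The white libraries come from different depots and the levels were not log-transformed, so that rate need not hold here. IWAT 1 stood apart in the summed mRNA TPM of complex I (gap share 0.56), complex III (0.628), complex IV (0.625), complex V (0.636) and all members (0.599). These sums share members, so they are not separate signs. IWAT 1 also stood apart for Cox8b (0.705 in mRNA TPM) and Atp5g3 (0.554 in mRNA TPM). RWAT 3 stood apart for Cox6a2, with a gap share of 0.792 in mRNA TPM and 0.789 in its share of the pair with Cox6a1. EWAT 1 stood apart for the Ndufa4l2 share of its pair with Ndufa4 (0.684).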

How the results depend on the processing

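Members called at the threshold changed with the tool and the libraries. DESeq2 called 1 member in BAT over EWAT, 6 in IWAT over EWAT and 1 in RWAT over IWAT, against 0 by edgeR. In IWAT over EWAT, edgeR called 2 when only the depots compared were fitted, 1 without EWAT 2 and RWAT 3, and 1 without RWAT 1 and RWAT 3, the last 2 settings chosen after seeing the data. Leaving out single libraries gave 0 to 5 members called in IWAT over EWAT and 0 to 1 in RWAT over IWAT. The other 141 of these counts, over comparisons and settings, were unchanged. The cause was not tested.

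With the replicate block, edgeR called 0 members in every comparison, and the genes called in IWAT over EWAT numbered 1064, against 2082 without the block. The block changed the sign of Uqcrh in BAT over the white average, to -0.033. Ndufa2 there was 0.0518 without EWAT 2 and RWAT 3 and 0.0275 without RWAT 1 and RWAT 3.

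Leaving out single libraries moved log2 fold changes of BAT over the white average across 0, with the lowest value without BAT 1 in each case. The ranges were -0.10 to 0.57 for Atp5d, -1.14 to 3.66 for Cox7a1, -1.43 to 4.996 for Cox8b, -0.29 to 0.17 for Ndufa2, -0.22 to 0.76 for Ndufs7 and -0.14 to 0.86 for Ndufv1. They were -0.0334 to 0.89 for Sdha, -0.23 to 0.88 for Sdhb, -0.26 to 0.37 for Sdhc, -0.10 to 0.86 for Uqcrc1, -0.29 to 0.83 for Uqcrfs1 and -0.47 to 0.32 for Uqcrh. Isoform shares, BAT minus white, ran from -3.27 to 23.1 percentage points for Cox7a1, from -4.83 to 24.1 for Cox8b and from -2.13 to 0.963 for Ndufa4l2.

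On the deposited TPM scale the summed members were 18738, 10689 and 10469 in BAT 1 to 3, 21220, 16790 and 15325 in IWAT 1 to 3, 13361, 12647 and 9461 in RWAT 1 to 3, and 10992, 7875 and 13569 in EWAT 1 to 3. IWAT 1 was then the highest library for 54 members and BAT 1 for 20, against 32 and 49 on the mRNA TPM scale. Depth limits the rarest isoforms: Cox4i2 had 203 counts over all libraries and Cox6a2 403.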
